A study of Homo sapiens with 6 samples.

Results

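Clade B serpins are intracellular protease inhibitors, and 10 of them were chosen here by gene symbol: SERPINB2, SERPINB3, SERPINB4, SERPINB5, SERPINB7, SERPINB8 and SERPINB13 of the cluster on chromosome band 18q21, and SERPINB1, SERPINB6 and SERPINB9 of the group on 6p25. A row of the count table matched 9 of the 10 symbols, 6 on chromosome 18 and 3 on chromosome 6, among 19469 genes in all. SERPINB7 had no row in the table used here and was not analysed. RNA of L3.6pl, an established human pancreatic cancer line of adenosquamous type, was sequenced after sorting by flow cytometry for surface L1CAM, a neural cell adhesion molecule, into 3 L1high libraries (labelled L1CAM_POSITIVE) and 3 L1low libraries (labelled L1CAM_NEGATIVE). Both groups were cells of this 1 line without any treatment, so the comparison holds for 1 line only, and the labels do not say whether replicates were separate cultures or sorts. The labels also write the line as L6.6pl in 1 field. The list was proposed with results of this same comparison in view, so the members' changes are given as a description with their standard errors and calls, and no p-value is given for them.

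Serpins trap proteases as suicide substrates. The protease cleaves an exposed reactive centre loop near the C-terminal end of the serpin, the serpin refolds around it, and both are inactivated, so the few residues of the loop set which protease is caught. Clade B members lack a classical secretion signal and act mostly inside the cell. Several members of the 18q21 cluster are known from stratified squamous epithelium, where they limit cathepsins, kallikreins and plasminogen activators, and those of 6p25 are best known for protecting cells against neutrophil and lymphocyte granule proteases.

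Total counts per library ran from 16334610 to 21064685. Every one of the 19469 genes exceeded 1 CPM (read count scaled to a common library total) in at least 2 libraries, so genes below that level cannot be assessed. The smallest count of any member in any library was 198, and no member entered the table through 1 group alone. Levels are CPM scaled with edgeR's TMM factors over all 6 libraries. A negative log2 fold change means lower in L1low cells. Following the comparison sheet of the study, the fit used 5 libraries and dropped L1high replicate 3, and the fit over all 6 libraries is given beside it. L1CAM itself stood between 69.8 and 89.5 CPM in the L1high libraries and between 17.7 and 23.7 in the L1low libraries. All 7 epithelial markers checked (EPCAM, KRT8, KRT18, KRT19, CDH1, CLDN4 and CLDN7) had rows, with a summed level of 3200 to 3640 CPM in L1high and 3450 to 3690 in L1low libraries. Of these, EPCAM (-0.37) and CLDN7 (-0.32) were called lower and KRT19 (0.69) higher. Of 10 leukocyte markers only CD68 and ITGAM had rows, PTPRC among those without, and they summed to 11.3 to 12.7 CPM in L1high and 10.2 to 12.7 in L1low libraries, with ITGAM called lower (log2 fold change -1.5). Of 10 fibroblast markers 4 had rows (COL1A1, COL3A1, LUM and ACTA2), summing to 269 to 309 CPM in L1high and 308 to 333 in L1low libraries. Among these LUM was called higher (log2 fold change 0.74, from 82.9 ± 6.13 to 142 ± 11.3 CPM, SD, n = 3 each) and COL1A1 stood at 202 against 170 CPM without a call, while PDGFRA, PDGFRB, DCN and FAP had none. Of 6 endothelial markers only PECAM1 had a row, at 11.3 to 11.9 CPM in L1high and 13.2 to 14.7 in L1low libraries.

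All 9 members were lower in L1low cells. Over the 5 libraries each was called lower, a call being an adjusted p below 0.05 (edgeR, quasi-likelihood, Benjamini-Hochberg over the whole table). Of all genes 3.15% were called lower and 4.41% higher, 7.57% in either direction. Over all 6 libraries the same 9 were called lower, where 3.37% of all genes were called lower and 4.58% higher, 7.95% in either direction. In each of the 9 the 3 L1low libraries lay below the 3 L1high libraries. This held for 13.7% of all genes, and 28.8% had no overlap in either direction. The median log2 fold change of the 9 members was -0.94, and that of all genes tested was 0. These shares are printed for scale only, since the list was chosen with this contrast known. In RNA from sorted bulk cells, fewer cells that express a serpin and less RNA per cell cannot be told apart.

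**Figure D1:**
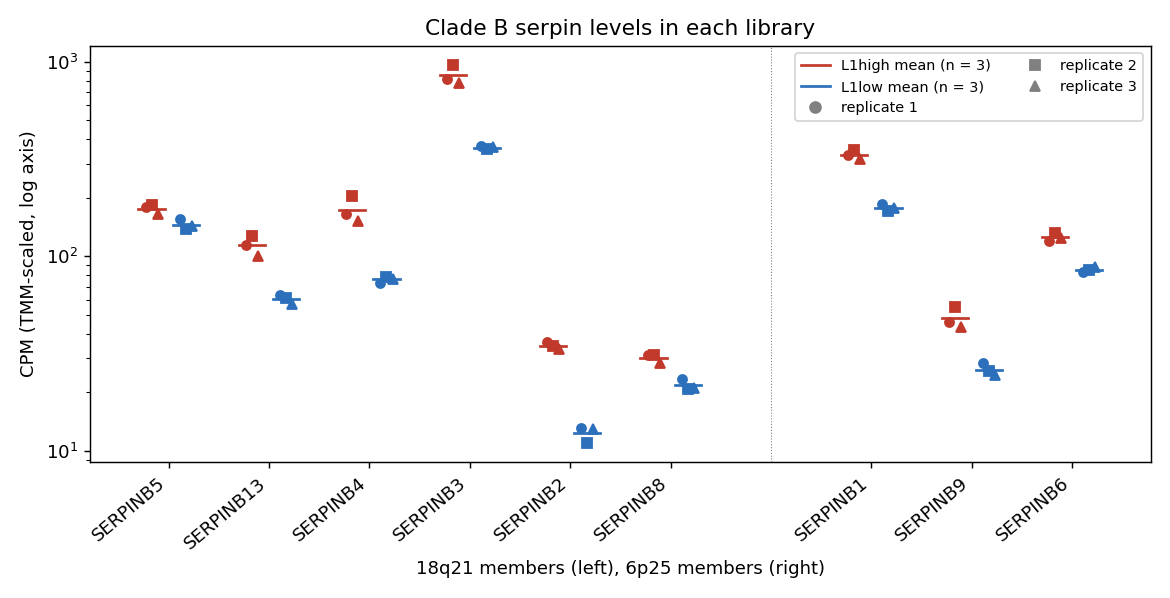
Level of each clade B serpin in each library, as TMM-scaled CPM on a log axis, with the 6 members of 18q21 in chromosomal order on the left and the 3 of 6p25 on the right; symbols mark replicates and horizontal bars the means of 3 libraries. In every member the L1low points lie below all L1high points, with the widest gap for SERPINB2 (34.7 against 12.3 CPM) and the narrowest for SERPINB5 (176 against 145 CPM).

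SERPINB3 and SERPINB4 encode the squamous cell carcinoma antigens, a tandem pair of which the first inhibits cysteine proteases such as cathepsin L and the second serine proteases such as cathepsin G. SERPINB3 (ENSG00000057149, chromosome 18, 63655197 to 63661893, minus strand, GRCh38) stood at 814, 966 and 783 CPM in L1high replicates 1, 2 and 3 and at 368, 357 and 365 CPM in L1low replicates 1, 2 and 3. The L1low libraries were close together at 363 ± 5.77 CPM (SD, n = 3), while L1high replicate 2 stood above the other L1high libraries (854 ± 98.1 CPM, SD, n = 3). Its log2 fold change was -1.28 (standard error 0.08) over the 5 libraries and -1.23 over all 6. SERPINB4 (ENSG00000206073, minus strand from 63637259 to 63644256) stood at 166, 205 and 152 CPM in the L1high libraries and at 73.4, 78.2 and 76.9 CPM in the L1low libraries. L1high replicate 2 was again the highest and the groups did not overlap. The log2 fold change of SERPINB4 was -1.27 (standard error 0.09) over the 5 libraries and -1.20 over all 6. Its gap of 0.01 from that of SERPINB3 over the 5 libraries had a standard error of 0.12, taking the genes as independent.

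The pair is near-identical, which bears on how far its counts are separate. The coding sequences of the canonical GENCODE transcripts are 1170 bases each, differ at 56 positions without a gap (95.2% identity) and share an unbroken run of 129 identical bases. Among the other 54 pairs formed by the 9 members, SERPINB10 and SERPINB11, identity ran from 51.9% to 72.7%. The 60 coding bases in which the pair differs most, bases 952 to 1011 of the coding sequence, lie in its last part, which also encodes the reactive centre loop. They are shown to let the reader see which letters can assign a read to 1 gene or the other, with the 10 differing bases in capitals.
SERPINB3: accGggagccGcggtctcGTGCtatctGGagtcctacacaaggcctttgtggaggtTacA
SERPINB4: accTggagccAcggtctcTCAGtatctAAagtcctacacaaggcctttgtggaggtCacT
The counts of SERPINB4 were 20.4%, 21.2% and 19.5% of those of SERPINB3 in the L1high libraries and 19.9%, 21.9% and 21.1% in the L1low libraries. The ratio thus overlapped between the groups. Whether reads shared by the pair were dropped or assigned to 1 gene is not given in the sources used here, so the separate levels are uncertain. With the counts of the pair summed into 1 gene the log2 fold change was -1.28, and the call stayed.

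SERPINB2 encodes plasminogen activator inhibitor type 2, which inhibits urokinase and tissue plasminogen activator. It lies on the plus strand of chromosome 18 from 63871692 to 63903888 (ENSG00000197632). It stood at 36.1, 34.7 and 33.3 CPM in the L1high libraries and at 13.1, 11 and 12.9 CPM in the L1low libraries, from 546 to 766 counts and from 198 to 238 counts. The L1low mean was 35.6% of the L1high mean, the lowest such share of the 9 members. The log2 fold change was -1.51 (standard error 0.11) over the 5 libraries and -1.49 over all 6, and 0.17% of all genes tested had a lower one.

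SERPINB13, known as headpin or hurpin, is a keratinocyte inhibitor of cathepsins K and L. It (ENSG00000197641, plus strand from 63586989 to 63604639) stood at 114, 127 and 101 CPM in the L1high libraries and at 63.6, 61.1 and 56.7 CPM in the L1low libraries. L1high replicate 3 was the lowest of its group and still stood above every L1low library. Its log2 fold change was -0.99 (standard error 0.09) over the 5 libraries and -0.92 over all 6.

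SERPINB8, an inhibitor of furin-type proteases in vitro, and SERPINB5, known as maspin, moved least among the members of 18q21. SERPINB8 (ENSG00000166401, plus strand from 63970029 to 64019779) stood at 31.1, 31.1 and 28.2 CPM in the L1high libraries and at 23.4, 20.8 and 21.1 CPM in the L1low libraries, with a log2 fold change of -0.51 (standard error 0.10) over the 5 libraries and -0.47 over all 6. SERPINB5 has a serpin fold but does not inhibit proteases, and is studied as a tumor suppressor in breast and as a marker of pancreatic cancer. SERPINB5 (ENSG00000206075, plus strand from 63476958 to 63505085) stood at 179, 183 and 166 CPM in the L1high libraries and at 155, 138 and 144 CPM in the L1low libraries. The groups did not overlap, with the lowest L1high library at 166 and the highest L1low library at 155 CPM (SD within the groups 9.13 and 8.58 CPM, n = 3 each). Its log2 fold change was -0.31 (standard error 0.08) over the 5 libraries and -0.28 over all 6, and 11.4% of all genes had a lower one. With 1 library fewer the changes of both genes stayed close to these values, but some calls were lost. SERPINB5 was not called without L1high replicate 1 (-0.33), L1high replicate 2 (-0.29) or L1low replicate 2 (-0.27), nor was SERPINB8 (-0.51, -0.51 and -0.48 without the same libraries).

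The 3 members of 6p25 lie side by side on the minus strand of chromosome 6. SERPINB1, an inhibitor of neutrophil elastase, cathepsin G and proteinase 3 (ENSG00000021355, from 2832332 to 2841959), stood at 334, 352 and 318 CPM in the L1high libraries and at 185, 172 and 177 CPM in the L1low libraries. Both groups were tight, and the log2 fold change was -0.94 (standard error 0.07) over the 5 libraries and -0.91 over all 6. SERPINB9, the inhibitor of granzyme B with which lymphocytes and some tumor cells protect themselves (ENSG00000170542, from 2887270 to 2903309), stood at 46.0, 54.7 and 43.4 CPM in the L1high libraries and at 28.3, 25.6 and 24.7 CPM in the L1low libraries. The change of SERPINB9 on the log2 scale was -0.93 (standard error 0.11) over the 5 libraries and -0.87 over all 6. SERPINB6, a broadly expressed inhibitor of cathepsin G and trypsin-like proteases (ENSG00000124570, from 2948159 to 2972165), stood at 120, 132 and 125 CPM in the L1high libraries and at 83.1, 84.7 and 87.8 CPM in the L1low libraries. It fell less than the other two, with a log2 fold change of -0.56 (standard error 0.08) over the 5 libraries and over all 6. SERPINB1 and SERPINB9 are abundant in blood leukocytes, whose defining marker PTPRC had no row here. Of the 2 leukocyte markers with rows, given above with their summed level, ITGAM fell with the serpins (3.5 ± 0.508 against 1.19 ± 0.343 CPM, SD, n = 3 each) and CD68 did not. The part of other cell types in the fall of SERPINB1 and SERPINB9 was not tested.

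The members of the 2 loci overlapped in the size of their change. The median log2 fold change was -1.13 for the 6 members of 18q21 (range -1.51 to -0.31) and -0.93 for the 3 of 6p25 (range -0.94 to -0.56). With SERPINB3 and SERPINB4, whose counts may not be separate, summed into 1 gene the median of 18q21 was -0.99. In order of the fall, SERPINB2, SERPINB3 and SERPINB4 came first, then SERPINB13, SERPINB1 and SERPINB9, then SERPINB6, SERPINB8 and SERPINB5. Only 2 of the 8 gaps between neighbours in this order exceeded 2 standard errors of the gap, that between SERPINB4 and SERPINB13 (0.29, standard error 0.13) and that between SERPINB9 and SERPINB6 (0.37, standard error 0.13). The standard error of a gap takes the genes as independent, although they were measured in the same libraries, so these limits are approximate. The 3 groups so marked off each held genes of 18q21, and all but the first also genes of 6p25. The difference between the loci was not tested, since the genes of a locus are not replicates. Summed over its members, 18q21 held 1260 to 1550 CPM in the L1high and 666 to 696 CPM in the L1low libraries, of which SERPINB3 was the larger part, and 6p25 held 486 to 538 CPM and 282 to 296 CPM.

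**Figure D2:**
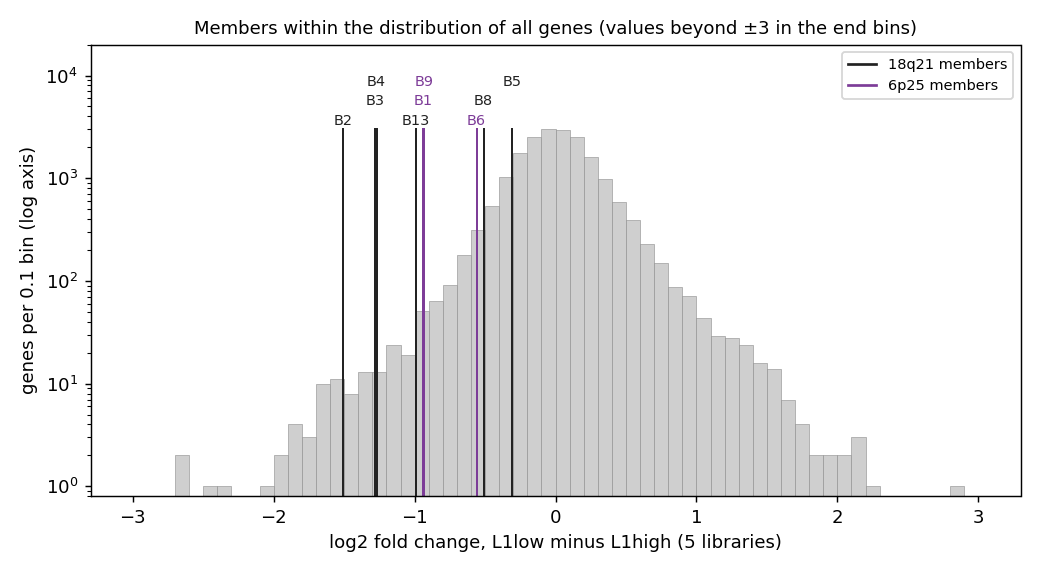
Distribution of the log2 fold change (L1low minus L1high, 5 libraries) over all 19469 genes in bins of 0.1 on a log axis, with vertical lines at the 9 members, named without SERPIN; black marks 18q21 and purple 6p25. The lines run from -1.51 for SERPINB2 to -0.31 for SERPINB5, the 3 of 6p25 lie among those of 18q21, and all are left of the median of all genes at 0.

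Levels were compared between genes per kilobase of the canonical transcript. In L1high cells SERPINB3 was the most abundant member at 500 ± 57.5 CPM per kb (SD, n = 3), followed by SERPINB1 (135), SERPINB4 (102), SERPINB6 (95.8), SERPINB5 (68.1), SERPINB13 (36.4), SERPINB2 (18.2), SERPINB9 (11.6) and SERPINB8 (9.08). The only neighbours in this order whose libraries overlapped were SERPINB4 and SERPINB6. In L1low cells SERPINB3 was again first at 213 ± 3.38 CPM per kb (SD, n = 3) and SERPINB1 next at 71.9. SERPINB4 (44.6) then stood below SERPINB6 (64.8) and SERPINB5 (56.2), and the last 3, SERPINB8 (6.55), SERPINB2 (6.47) and SERPINB9 (6.32), overlapped. The place of SERPINB4 in both orders is uncertain, since it is not known how reads shared with SERPINB3 were counted.

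The annotation places 13 numbered clade B genes in the genome, and 2 that the rule did not name had rows, SERPINB10 and SERPINB11 of 18q21. SERPINB10 (ENSG00000242550, from 63907958 to 63936111), known as bomapin from bone marrow, stood at 27.0, 25.7 and 22.7 CPM in the L1high libraries and at 9.96, 6.52 and 9.04 CPM in the L1low libraries. It changed by -1.62 on the log2 scale (standard error 0.15) over the 5 libraries and by -1.56 over all 6, and was called lower in both fits. SERPINB11 (ENSG00000206072, from 63647579 to 63726432) stood at 267, 316 and 250 CPM and at 130, 123 and 121 CPM. This gave a change of -1.22 (standard error 0.09) in the 5-library fit and of -1.16 with all 6 libraries, called lower in both. As for the members, no p-value is given for SERPINB10 and SERPINB11. Both were lower in 3 of 3 L1low libraries than in any L1high library, although L1low replicate 2 of SERPINB10 stood apart from the other L1low libraries.

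Neither gene can be read as fully separate from its neighbours. The annotated span of SERPINB11 covers SERPINB3 on the opposite strand, with 620 exonic bases in common over all their transcripts. The strand setting of the counting is not given in the sources used here, so reads of the pair cannot be told apart with certainty. The counts of SERPINB11 were 32.8%, 32.8% and 32.0% of those of SERPINB3 in the L1high and 35.3%, 34.5% and 33.2% in the L1low libraries, a narrow range that leaves the groups just apart. SERPINB2 shares 547 exonic bases on its own strand with a gene (ENSG00000289724) that runs on into SERPINB10 and has no row here. The counts of SERPINB10 ran from 68.1% to 74.8% of those of SERPINB2 in the L1high and from 59.1% to 76.1% in the L1low libraries, and this ratio overlapped. SERPINB8 shares 153 exonic bases on the opposite strand with a long non-coding gene (ENSG00000283667) that has a row and was not examined. HMSD shares 370 exonic bases with SERPINB8 on the same strand. It stood at 13 ± 0.782 CPM in L1high and 8.14 ± 0.300 CPM in L1low cells (SD, n = 3 each), and its counts were 40.2% to 44.6% of those of SERPINB8 in the L1high and 36.2% to 38.1% in the L1low libraries.

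**Figure D3:**
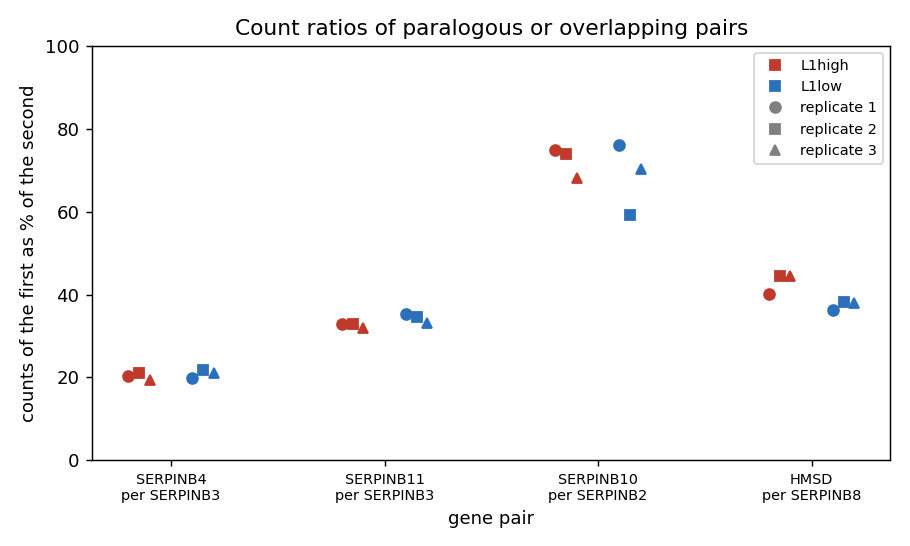
Counts of the first gene of each pair as a percentage of those of the second, by library, for the near-identical pair SERPINB4 and SERPINB3 and for 3 overlapping or adjacent pairs; color marks the group and symbols the replicate. The ratios of SERPINB4 to SERPINB3 (19.5% to 21.9%) and of SERPINB10 to SERPINB2 (59.1% to 76.1%) overlap between the groups, and those of SERPINB11 to SERPINB3 and of HMSD to SERPINB8 do not.

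The genes around the 2 loci moved both ways. The listed genes flanking or lying within the 18q21 cluster without a SERPINB symbol were ZCCHC2, PHLPP1, BCL2, KDSR, VPS4B, HMSD, TNFRSF11A, RELCH and PIGN. Of these 9, 2 were called lower over the 5 libraries and none higher. The median log2 fold change of the 9 was 0.07 (-0.04 without L1high replicate 1, and -0.01 without L1high replicate 2 or L1low replicate 1). The 2 were HMSD (-0.69, standard error 0.13, adjusted p = 0.0076 by edgeR) and KDSR, an enzyme of sphingolipid synthesis (-0.37, standard error 0.10, adjusted p = 0.039 by edgeR). KDSR was not called over all 6 libraries (-0.27, adjusted p = 0.18 by edgeR). VPS4B, the nearest listed gene on the SERPINB5 side, stood at -0.13 (standard error 0.10) and was not called. BCL2, next beyond KDSR on that side, stood at -0.70 (standard error 0.26) without a call, at 3.03 against 1.99 CPM. HMSD lies within the cluster and shares exonic bases with SERPINB8, so its fall cannot be read as that of a separate neighbour. The nearer genes VPS4B, KDSR and BCL2 had negative changes too. Of these VPS4B, the nearest, fell least and BCL2, the farthest, fell most. The farther genes PHLPP1, ZCCHC2, TNFRSF11A, RELCH and PIGN ran from 0.07 to 0.34, none of them called. The split into nearer and farther genes was made with these values in view, and a dependence on distance was not tested. Of 18 genes around the 6p25 members, 1 was called lower and 3 higher, with a median of -0.07 (-0.02 without L1high replicate 2 and -0.04 without L1low replicate 1). NQO2, a quinone reductase and the nearest listed gene to SERPINB6, fell (-0.45, standard error 0.10). FOXQ1, a forkhead transcription factor, rose (2.19, standard error 0.26), as did the transporter gene SLC22A23 (1.09, standard error 0.11) and PSMG4, a proteasome assembly chaperone (0.57, standard error 0.13). WRNIP1, the nearest listed gene on the SERPINB1 side with a row, stood at -0.06 (standard error 0.09) and was not called.

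**Figure D4:**
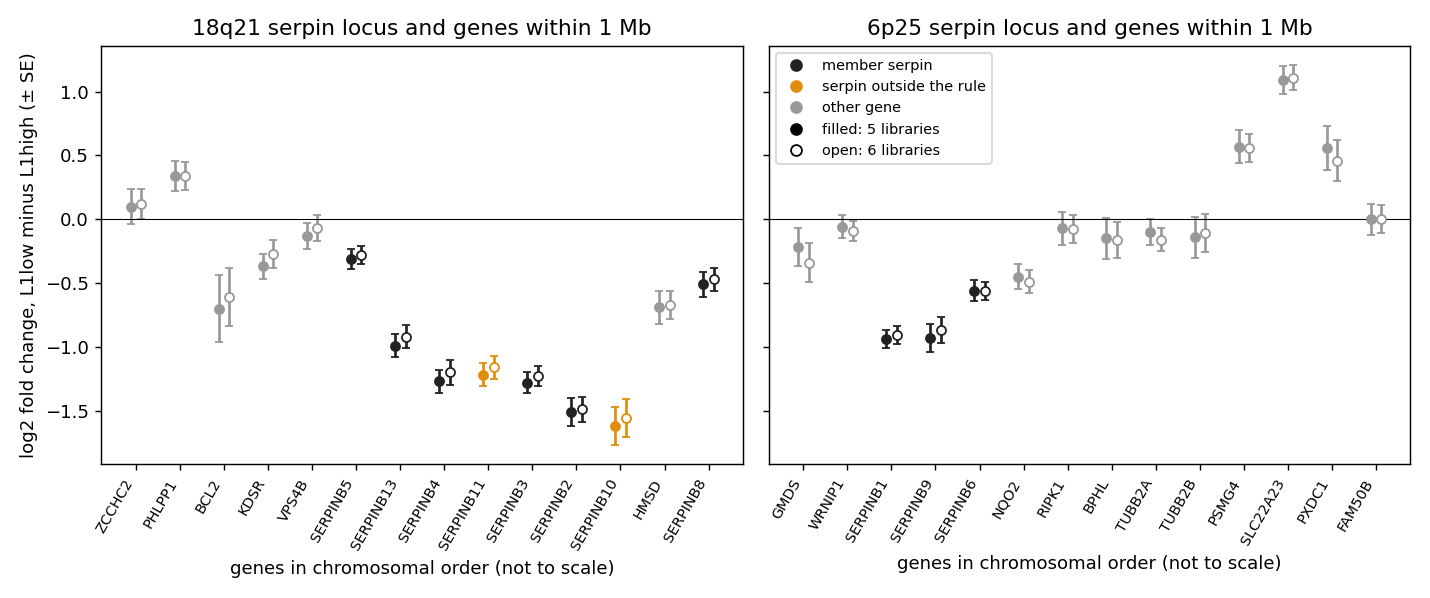
Log2 fold change (L1low minus L1high) with its standard error for the protein-coding genes with a row within 1 Mb of the 18q21 (left) and 6p25 (right) members, in chromosomal order and not to scale; filled points are the fit over 5 libraries and open points that over 6. On 18q21 the values of the serpins run from -1.62 (SERPINB10) to -0.31 (SERPINB5). Those of the other genes there run from -0.70 (BCL2) to 0.34 (PHLPP1). On 6p25 SLC22A23 stands at 1.09 while SERPINB1 stands at -0.94.

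The sequence before the RefSeq transcription starts differed between the loci in base composition. RefSeq (GRCh38.p14) gave a start for all 10 named symbols, in 15 entries. In the 250 bases before the start, the median of all 35116 promoters was 11 CG pairs. The first-listed entries of SERPINB1, SERPINB6 and SERPINB9 held 21, 26 and 27, while those of SERPINB2, SERPINB3, SERPINB4, SERPINB8, SERPINB13 and SERPINB5 held 0, 3, 2, 7, 4 and 13. SERPINB6 has 4 entries, of which the last holds 3. The promoters of SERPINB9 and SERPINB5, from each locus that with the most CG pairs among members with a single entry, are shown with CG pairs in capitals, at chr6:2903310-2903559 (minus strand) and chr18:63476708-63476957 (plus strand).
SERPINB9: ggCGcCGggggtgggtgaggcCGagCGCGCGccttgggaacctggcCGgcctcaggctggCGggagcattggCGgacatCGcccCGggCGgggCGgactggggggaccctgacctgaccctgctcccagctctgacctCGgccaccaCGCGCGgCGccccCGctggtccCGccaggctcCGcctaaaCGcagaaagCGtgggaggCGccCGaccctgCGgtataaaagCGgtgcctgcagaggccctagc
SERPINB5: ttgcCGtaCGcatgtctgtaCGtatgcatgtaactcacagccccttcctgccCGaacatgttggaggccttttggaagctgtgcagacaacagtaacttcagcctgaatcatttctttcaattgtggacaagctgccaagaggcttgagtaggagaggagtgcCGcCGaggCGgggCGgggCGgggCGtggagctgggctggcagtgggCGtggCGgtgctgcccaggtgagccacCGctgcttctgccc
Among the measured members of 18q21 the fall was larger where CG pairs were fewer. It ran from SERPINB2 (0 CG pairs, log2 fold change -1.51) over SERPINB13 (4, -0.99) and SERPINB8 (7, -0.51) to SERPINB5 (13, -0.31). SERPINB4 (2, -1.27) and SERPINB3 (3, -1.28) were alike, and their counts may not be separate. No promoter entry was available for SERPINB10 (-1.62) and SERPINB11 (-1.22), the other serpins of 18q21 with rows. Between the loci, SERPINB9 (27 CG pairs, -0.93) fell much like SERPINB13. SERPINB1 (21, -0.94) and SERPINB6 (26 in its first entry, -0.56) also fell more than SERPINB5. A link between CG pairs and the fall was not tested.

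The AP-1 motif, TGANTCA on either strand, occurs in the 250 bases of 6.57% of all promoters. Among the 9 measured members it occurs in the entries of SERPINB2, SERPINB5, SERPINB8 and SERPINB13, and in none of SERPINB3, SERPINB4, SERPINB1, SERPINB6 and SERPINB9. The 4 genes with a match ran from -1.51 to -0.31 and the 5 without from -1.28 to -0.56. The promoter of SERPINB2, the member with the largest fall, is shown with the motif in capitals, at chr18:63887455-63887704 (plus strand), inside the annotated gene because GENCODE also holds a transcript with an earlier start.
SERPINB2: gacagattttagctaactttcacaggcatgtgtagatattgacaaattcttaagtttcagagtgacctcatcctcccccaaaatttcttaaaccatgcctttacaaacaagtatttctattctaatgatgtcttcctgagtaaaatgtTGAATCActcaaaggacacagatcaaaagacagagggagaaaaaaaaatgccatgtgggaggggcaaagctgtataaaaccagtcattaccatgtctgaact
The promoters of SERPINB3 and SERPINB4 are 98.8% identical over 250 bases, and are shown with the 3 differing bases in capitals, at chr18:63661894-63662143 and chr18:63644257-63644506 (both minus strand).
SERPINB3: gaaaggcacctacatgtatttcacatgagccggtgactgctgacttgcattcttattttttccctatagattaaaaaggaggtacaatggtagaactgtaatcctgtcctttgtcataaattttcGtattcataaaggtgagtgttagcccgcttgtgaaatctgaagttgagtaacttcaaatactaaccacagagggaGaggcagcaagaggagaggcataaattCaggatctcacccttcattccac
SERPINB4: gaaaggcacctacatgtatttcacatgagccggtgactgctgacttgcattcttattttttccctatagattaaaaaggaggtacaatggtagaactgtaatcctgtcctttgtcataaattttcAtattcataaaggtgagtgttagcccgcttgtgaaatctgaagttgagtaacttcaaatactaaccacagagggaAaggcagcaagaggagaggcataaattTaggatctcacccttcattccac
A match describes these letters only and says nothing about binding in these cells.

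Serpins of other clades moved both ways. Of 22 listed, 8 had rows, and their median log2 fold change was 0.05 over the 5 libraries (-0.09 over the genes with at least 10 counts in every library). This median depended most on L1high replicate 1, without which it was 0.28 (0.29 when replicate 3 was kept). It was 0.11 without L1high replicate 2, and 0.02, 0.03 and 0.16 without L1low replicates 1, 2 and 3. SERPINH1, the collagen chaperone, rose (0.34, standard error 0.07, adjusted p = 0.016 by edgeR), with 262 to 273 CPM in the L1high and 318 to 350 CPM in the L1low libraries. SERPINE2, protease nexin, fell (-0.41, standard error 0.07, adjusted p = 0.0032 by edgeR), with 749 to 815 CPM in the L1high and 581 to 608 CPM in the L1low libraries. Neither gene's groups overlapped.

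Of 24 proteases that clade B serpins are known to meet, 10 had rows, and PRSS8, a membrane serine protease, was the only one called over the 5 libraries (-0.36, standard error 0.09, adjusted p = 0.024 by edgeR). The targets of SERPINB2, PLAU (-0.32, standard error 0.13) and PLAT (-0.10, standard error 0.07), were not called, nor were CTSL (-0.27, standard error 0.09), CTSV (0.11, standard error 0.12) and CTSK (0.14, standard error 0.19), targets of SERPINB3 and SERPINB13, or FURIN (0.12, standard error 0.10). Over all 6 libraries CTSL was called lower (-0.31) and CASP1 higher (0.40), besides PRSS8 (-0.42). The genes of ELANE, CTSG, PRTN3 and GZMB, the granule proteases caught by SERPINB1, SERPINB6 and SERPINB9, had no row here.

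Markers of squamous epithelium, in which SERPINB3, SERPINB4, SERPINB5 and SERPINB13 are usually seen, moved both ways. Of 22 listed, 15 had rows, 3 were called higher and 2 lower over the 5 libraries, and the median log2 fold change was 0.13. TP63, the basal transcription factor (1.09, standard error 0.08), TGM1, the transglutaminase of the cornified envelope (1.5, standard error 0.12), and KRT14 (0.50, standard error 0.09) rose. KRT4, a keratin of mucosal epithelium (-1.09, standard error 0.15), and KRT6A (-0.58, standard error 0.07) fell, and KRT5 stood at 0.14 (standard error 0.06) and was not called. The summed level of the list was 12500 to 13600 CPM in L1high and 12700 to 13800 in L1low libraries. Immediate early and AP-1 genes, which respond to handling as well as to signals, moved with the groups. Of 12 listed, 6 were called higher in L1low cells and none lower, their median was 0.29 (0.22 without L1high replicate 2, and 0.18 without it when replicate 3 was kept), and they summed to 8570 to 9180 CPM in L1high and 10500 to 11300 in L1low libraries. ATF3 (0.50, standard error 0.07), FOSB (0.46, standard error 0.07) and IER2 (0.43, standard error 0.09) rose most. Their part in the fall of the serpins was not tested.

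Over the 6 libraries, the genes whose log2 CPM ran most like that of SERPINB3, the member with most counts on chromosome 18, were LXN (Pearson's r = 0.9995), CD55 (0.9993) and TSR1 (0.9992), among the 17101 genes whose log2 CPM averaged 1 or more. LXN, the carboxypeptidase inhibitor latexin, had a log2 fold change of -0.88 (standard error 0.10), and CD55 one of -0.63 (standard error 0.07). TSR1 had one of only -0.11 (standard error 0.07) and was not called. It could still rank among the most alike, since r takes no account of the size of a change. For SERPINB1, the member with most counts on chromosome 6, they were STEAP4 (r = 0.9990, log2 fold change -1.23), HP (0.9986, -0.62) and SOSTDC1 (0.9985, -0.73). These points share their libraries and the 2 groups, and are a description.

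Within the groups many members shared the same order of libraries. L1high replicate 2 was the highest L1high library in 7 of the 9 members and L1high replicate 3 the lowest in 8, and L1low replicate 1 was the highest L1low library in 7. These ranks were not counted over all genes, so they cannot be read as a trait of the serpins. With L1high replicate 3 in the place of L1high replicate 2 all 9 changes were smaller. The median of the 18q21 members was -0.95 and that of the 6p25 members -0.77 in that fit, all 9 members were still lower in L1low cells, and SERPINB5 was not called (-0.25).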

How the data were processed

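Gene counts of 3 L1high and 3 L1low libraries of sorted L3.6pl cells were analysed. The authors trimmed paired-end reads of stranded mRNA libraries, aligned them to GRCh38 with BWA, and used featureCounts with the gene models of Ensembl 94 to obtain the deposited read counts, which are raw. Versions, strand and multi-mapping options are not given in the sources used here. As an aligner for genomic DNA, BWA is not built to split reads over introns, which can lower the counts of genes with short exons. The submitters' processing notes also name DESeq2.

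The counts were tested in R 4.3.3 with edgeR 4.0.16 (TMM, filterByExpr, quasi-likelihood test, Benjamini-Hochberg adjustment over all 19469 genes, calls below an adjusted p of 0.05). Standard errors are the size of the log2 fold change divided by the square root of F. As nothing says that replicates came from separate cultures, p-values measure only the spread between these samples. Log2 CPM used a prior count of 2. Symbols, positions and lengths came from GENCODE release 44, which matched 19344 identifiers. The standard errors of the members, from 0.07 to 0.11, show the precision at this depth. In a simulation of the 5-library fit over 19469 genes, 156 of 200 genes given a log2 change of 1 were recovered (78%), and 9 of the 165 calls were false. The closest pair of libraries, L1high replicates 1 and 3, were not the same library deposited again, as their chi-square over genes was 3.66 times its degrees of freedom.

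The members and gene lists were chosen with earlier results of these data known. Named genes are the members, L1CAM, the called genes of each list (at most 3 per direction) and the 3 genes most like 2 members. A called gene of the list of other serpins is not reported here. Uncalled list genes that are named, and those called over 6 libraries only, were chosen after their values were seen. The alternatives were all 6 libraries, each library left out, RLE or upper-quartile factors, DESeq2 1.42.0, other filters, the replicate number as a block, and SERPINB3 and SERPINB4 summed.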

Additional observations from a re-analysis of the deposited data

How the results depend on the processing

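All 9 members were lower in L1low cells under each of the alternatives, and 7 of them (all but SERPINB5 and SERPINB8) were called under each. SERPINB5 ranged from -0.36 to -0.25 with 1 library left out, and was not called without L1high replicate 1 (-0.33), L1high replicate 2 (-0.29) or L1low replicate 2 (-0.27), nor, when L1high replicate 3 was kept, without L1high replicate 1 (-0.26) or 2 (-0.25). SERPINB8 ranged from -0.56 to -0.45 and lost its call without the same 3 libraries (-0.51, -0.51 and -0.48), and without L1high replicate 1 when replicate 3 was kept (-0.45). With 1 library left out the median of the 18q21 members ran from -1.23 to -0.95 (-1.01 without L1high replicate 2) and that of the 6p25 members from -0.97 to -0.77 (-0.8 without L1high replicate 2). Summing SERPINB3 and SERPINB4 moved the 18q21 median to -0.99.

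The number of genes called, 1473 over the 5 libraries, ran from 389 (without L1high replicate 2) to 1649 (without L1low replicate 3), with 877 without L1high replicate 1, 551 without L1low replicate 2, and 674 without L1high replicate 1 when replicate 3 was kept. Where L1high replicates 1 or 2 were left out of the 5 libraries, the lone L1high library was assumed to vary like the others. The share of calls that were lower was 41.7% and became 35% and 35.5% without L1high replicates 1 and 2. Equal replicate numbers were not taken to pair the samples in the main fit, as the labels state no pairing. The correlations of the deviations of equal numbers were 0.113, 0.099 and 0.29, each the highest for its L1low library. L1high replicate 2 correlated slightly better with L1low replicate 1 (0.104). A pairing by replicate number was therefore not settled. With the replicate number as a block over all 6 libraries 2363 genes were called, 48.4% of them lower, against 1548 and 42.4% without the block. No member lost its call. Among the lists, the median of the serpins of other clades reached -0.09 and that of the genes flanking 18q21 -0.04, so that both could take either sign.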
